A study of Sus scrofa with 207 samples.

Results

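Translation initiation and elongation factors are the proteins that start and extend protein synthesis on the ribosome, and their mRNAs were followed here across the muscle of 207 pigs. The members were all genes whose symbol in the array annotation starts with EIF or EEF, without EIF1AX, EIF1AY and EIF2S3, and each was read from the probe set with the highest mean over the arrays among its non-control probe sets that carry only that symbol. This gave 40 genes, measured by 61 probe sets, of 6765 genes and 23935 tested probe sets in all. Of the 40 genes, 39 matched a pig reference gene table by gene number, and EIF2S2 did not. EEF1A2, EEF2, EIF4EBP1 and EIF2AK3 had no single-symbol probe set on the array, and 6 probe sets that carry an EIF symbol beside another one were not used.

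The animals were commercial crossbred pigs of the cross Pix(DLxDE), all in 1 group with no treatment, and muscle was taken from each at slaughter, when end weight averaged 110 kg. Each animal had 1 Affymetrix Porcine Genome Array and 2 trait labels. Drip loss is the share of its weight that a suspended sample of longissimus muscle gives off as liquid in the cold, and it averaged 5.37 ± 2.22% (SD, n = 207), from 1.45 to 10.82%. Fat area over the same muscle averaged 15.0 ± 3.15 cm2 (SD, n = 207 less 8 animals without the value), from 8.1 to 26.7 cm2. Age, sex, sire and slaughter day are not in the labels used here and do not enter the fits as reported. A component of sex-linked transcripts stood in for sex in an alternative fit. A title number was the only other label on each sample. Each animal is a separate sample of 1 group, so every comparison is a regression or a correlation across animals.

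Initiation begins when eIF2, carrying the initiator tRNA and GTP, joins the small ribosomal subunit together with eIF1 and the multisubunit eIF3. The cap-binding complex eIF4F, built from the cap-binding protein eIF4E, the helicase eIF4A and the scaffold eIF4G, brings this subunit to the mRNA, and eIF2B recharges eIF2 with GTP after each round. In elongation eEF1A delivers each aminoacyl-tRNA to the ribosome and is recharged by the eEF1B subunits. In skeletal muscle these steps are the known point at which amino acids, insulin and load adjust protein synthesis, largely through phosphorylation of the factors, which an mRNA array does not measure.

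The median log2 value of an array was 5.96 at the lowest and 6.18 at the highest. The tissue label was borne out by 6 measured skeletal muscle markers, whose mean levels were 12.7 to 14.1, and none of the 6 passed for either trait. Markers of adipocytes, endothelium, macrophages, T lymphocytes, blood cells, matrix and nerve, 19 measured genes in all, also gave 0 calls with either trait. Over all genes 6.08% passed with drip loss and 0.148% with fat area. All 4 endothelial markers had negative slopes on fat area, and 1 of them passed as lower when title number blocks were in the fit. A set of 24 arrays resembled the rest less well, with a median correlation to them of at most 0.971 and down to 0.944, against a typical 0.978. Drip loss averaged 4.20 ± 1.55% (SD, n = 24) in these animals and 5.53 ± 2.25% (SD, n = 207 less these 24) in the others, so the main results are also given without them. Arrays were also split into 10 blocks by title number, each spanning 100 numbers and holding 10 to 35 animals. The labels give these numbers no meaning, so the blocks were set by this cut and used as possible batches. Title numbers also ran in a lower and a higher series with a wide gap between them, and the higher series held 33 animals. As whole muscle was measured, fewer cells of a type and less RNA per cell cannot be told apart.

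Most members lay well above the floor and varied little between animals. For 39 of the 40 the mean exceeded that of the typical tested probe set (median 6.10), the exception being EIF2AK2, and no member had a value at the floor of the scale. The SD over the animals ran from 0.088 for EIF1, which guards start codon choice, to 0.60 for EIF4E, with a median of 0.21 against 0.25 over all genes. Title number blocks held between 1.88% (EEF1E1) and 22.7% (EIF4G3) of a member's variance, with a median of 12.6% against 9.20% over all genes.

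The 5 members with the largest SD were EIF4E, EIF2AK2, EIF2S2, EIF4G3 and EIF4A1. EIF4E, the cap-binding protein, had a lowest level of 5.25, a median of 6.98 and a highest level of 8.96, a 13.1-fold span. EIF2AK2, the double-stranded RNA-activated kinase of eIF2 known to be induced by interferon, ran from 4.28 through a median of 5.35 to 7.34. EIF2S2, the beta subunit of eIF2, ran from 8.27 through 10.29 to 11.67, a 10.6-fold span. EIF4G3, a scaffold of eIF4F, ran from 7.64 through 8.93 to 10.33. EIF4A1, the eIF4F helicase, ran from 8.44 through 9.27 to 10.60. At the other end of the range, EEF1B2, an exchange factor of eEF1A, stayed within 12.76 and 13.53, a 1.71-fold span over all 207 animals.

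With drip loss, 4 of the 40 members passed (limma, Benjamini-Hochberg adjustment over all tested probe sets, adjusted p under 0.05). Levels of EEF1A1 and EIF2B4 were higher, and those of EIF4A1 and EIF4G3 lower, in animals with more drip loss. The share of 10% compares with 6.08% of all genes called in either direction. By direction the members gave 5% each way, beside 3.96% of genes called higher and 2.11% called lower. With 2 members in each direction these shares rest on very few genes. An unadjusted p under 0.05 was seen for 16 of the 40 members and for 1614 of the 6765 genes. Slopes are in log2 units per SD of the trait, and 21 members had a positive and 19 a negative slope, with a median of 0.0052 against 0.0080 over all genes.

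**Figure D1:**
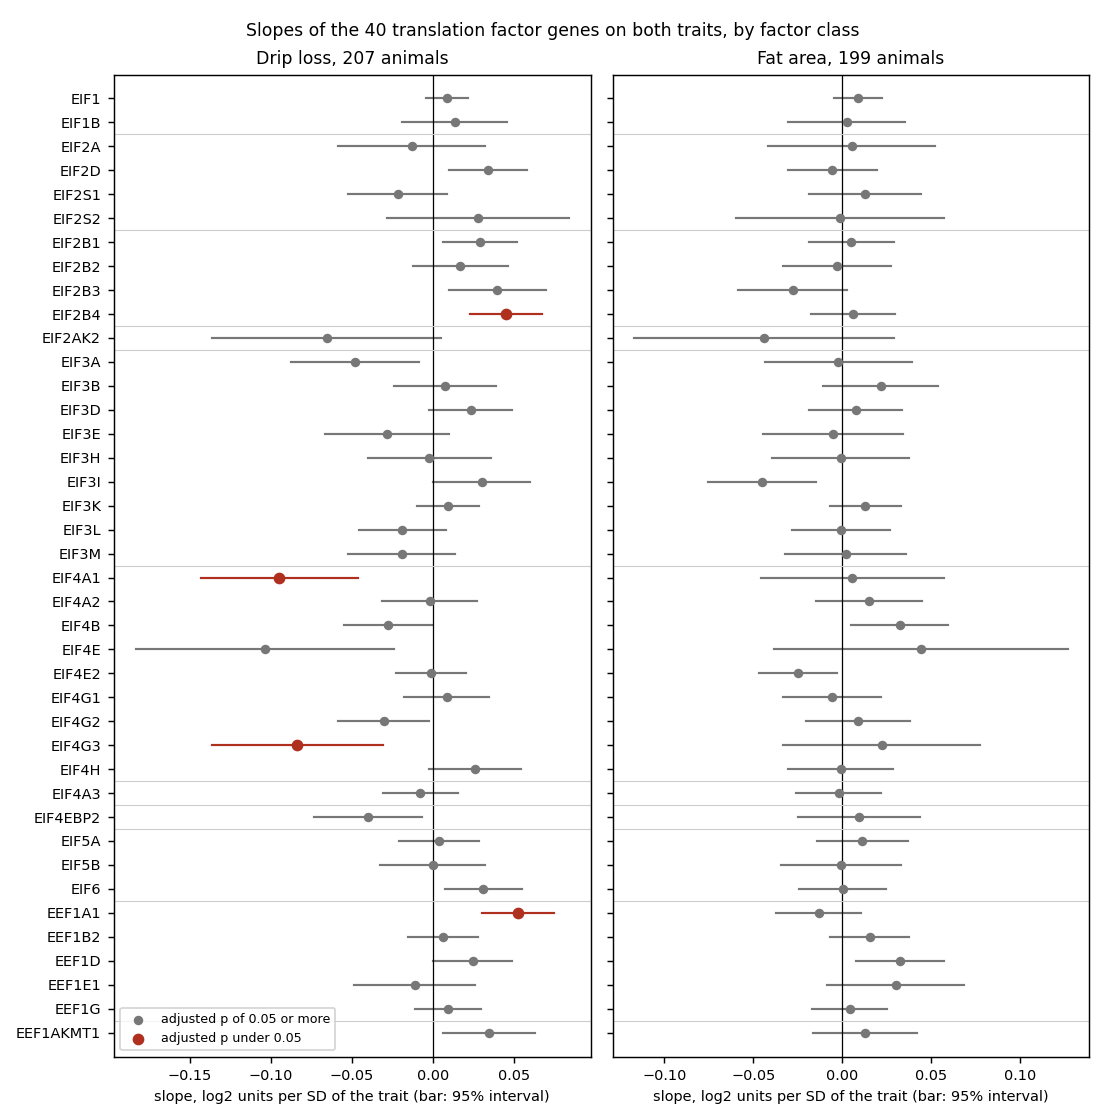
Slope of each of the 40 members on drip loss (left, 207 animals) and on fat area (right, 8 animals fewer) in log2 units per SD of the trait, with points for slopes, bars for 95% intervals, red for an adjusted p under 0.05 and lines between factor classes. The 4 red points are all in the drip loss panel: EEF1A1 and EIF2B4 to the right of 0, EIF4A1 and EIF4G3 to the left.

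EEF1A1, the GTP-binding factor that carries aminoacyl-tRNA to the ribosome, had a lowest level of 7.39, a median of 8.05 and a highest of 8.58. In the 52 animals with drip loss up to 3.59% its level ran from 7.39 through a median of 7.98 to 8.34, and in the 52 animals with 7.2% or more from 7.88 through 8.105 to 8.43. The ranges overlapped from 7.88 to 8.34, and levels below this span were found in the group with little drip loss and not in the other. The slope was 0.053 ± 0.011 (SE, n = 207), or 3.72% per SD of drip loss, with an adjusted p of 0.0022 in limma. Without the 24 arrays of low correlation it was 0.043 (adjusted p 0.0097) and with the blocks of title numbers in the fit 0.053 (adjusted p 0.0068). After 5 principal components of all probe sets it was 0.026 (adjusted p 0.47, limma).

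This result rests on 1 of several readings of the gene. EEF1A1 has 3 non-control probe sets, and the other pair gave slopes of 0.038 ± 0.021 (adjusted p 0.32, limma) and -4.07e-05 ± 0.021 (adjusted p 0.999). Across animals the member's level correlated with the first of them at r = 0.26 (rho = 0.23, permutation p 0.00014, 0.00022 adjusted over 24 relations between probe sets of a gene) and with the other at r = -0.069 (adjusted permutation p 0.36). The array also holds EF1A control probe sets, of which the middle one carries the symbol EEF1A1 and has a higher mean than any of the 3. It was kept out with the other controls of the array, although a literal reading of the selection rule would choose it. Its level ran from 10.45 through 12.92 to 13.72, its slope was 0.071 ± 0.028 (adjusted p 0.13, limma), and it correlated with the member's probe set at r = 0.077 (rho = 0.083, adjusted permutation p 0.31). With this control in place of the member the count of members higher with drip loss is 1. The mean of the 3 non-control probe sets gave 0.030 (adjusted p 0.074, limma). What the member's probe set, of a type that can match several transcripts, picks up in pig muscle was not tested.

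EIF2B4, the delta subunit of the exchange factor eIF2B, ran from 9.20 through a median of 9.84 to 10.52. Its median was 9.79 in the 52 animals with least drip loss (9.20 to 10.15) and 9.865 in the 52 with most (9.53 to 10.52). The lowest level of the first group and the highest of the second came from a single animal each. The next levels there were 9.46 and 10.20, so apart from these animals the ranges overlapped almost fully. The slope was 0.045 ± 0.011 (SE, n = 207), 3.18% per SD, with an adjusted p of 0.0089 in limma. It was 0.035 with the title number blocks (adjusted p 0.12), and without the 24 arrays the adjusted p was 0.049. The other 3 measured eIF2B subunits also had positive slopes: 0.029 ± 0.012 for EIF2B1, 0.017 ± 0.015 for EIF2B2 and 0.040 ± 0.015 for EIF2B3, with adjusted p of 0.12, 0.57 and 0.11 in limma.

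EIF4A1, the helicase that unwinds the leader of an mRNA, had a median of 9.43 in the 52 animals with least drip loss (8.73 to 10.21) and of 9.22 in the 52 with most (8.64 to 10.14). The groups overlapped almost fully and differed in their middle. Its slope was -0.095 ± 0.025 (SE, n = 207), -6.35% per SD, with an adjusted p of 0.012 in limma. With the title number blocks the slope was -0.074 (adjusted p 0.14), and in the lower of both series of title numbers alone it was -0.087 (adjusted p 0.075). Its mean was 0.24 log2 units higher in the 24 low-correlation arrays than in the others, and without them its adjusted p was 0.031.

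EIF4G3 had a median of 9.01 in the 52 animals with least drip loss (7.64 to 10.13) and of 8.88 in the 52 with most (7.84 to 9.50). The highest levels were missing from the animals with most drip loss, while the low ends lay close together. The slope was -0.083 ± 0.027 (SE, n = 207), -5.62% per SD, with an adjusted p of 0.048 in limma, just under the threshold. Without the 24 arrays of low correlation it was -0.056 (adjusted p 0.30), with the title number blocks -0.046 (adjusted p 0.45), and with the 3-prime minus 5-prime difference of the actin control as a covariate -0.071 (adjusted p 0.11). Its mean was 0.22 log2 units higher in the 24 arrays.

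**Figure D2:**
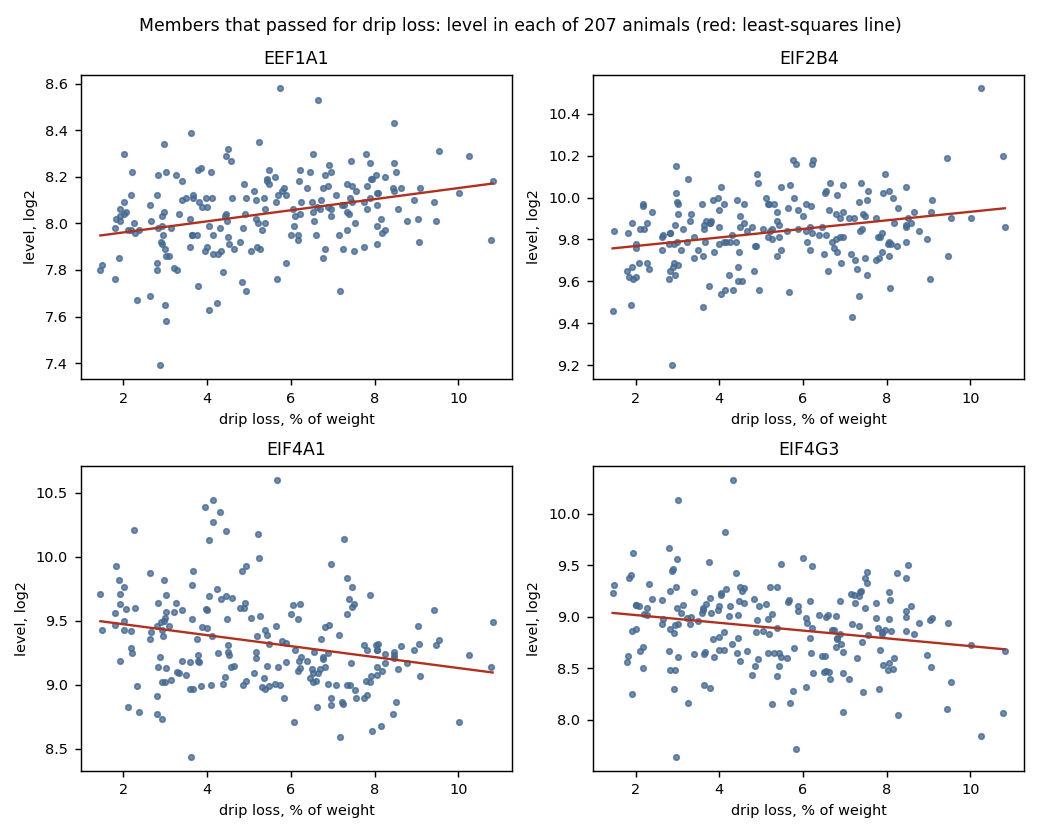
Level (log2) of EEF1A1, EIF2B4, EIF4A1 and EIF4G3 against drip loss (% of weight), with a point for each of 207 animals and the least-squares line in red. The lines tilt up for EEF1A1 and EIF2B4 and down for EIF4A1 and EIF4G3, and the scatter about each line is far wider than its rise or fall over the range of drip loss.

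Classes of members were set by gene symbol, so a gene in a class need not be a subunit of that complex. The class of eIF4F factors and helpers had 7 negative slopes of 9, with a median of -0.027. The 2 that passed as lower were EIF4A1 and EIF4G3, beside 2.11% of all genes, and with title number blocks, or after 5 principal components, 0 of the 9 passed as lower. EIF4E had the most negative slope of any member, -0.10 ± 0.041, and did not pass (adjusted p 0.12, limma). After 5 principal components it was 0.0099. EIF4G1, the main eIF4G scaffold, had a slope of 0.0086 ± 0.013 (adjusted p 0.79). EIF4A2, a close paralog of EIF4A1, had a slope of -0.0018 ± 0.015 (adjusted p 0.97). EIF4EBP2, a repressor that binds eIF4E, had a slope of -0.040 ± 0.017 (adjusted p 0.16).

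Of the 9 measured eIF3 subunits 0 passed, 4 slopes were positive and 5 negative. EIF3E, a subunit of the eIF3 core, had -0.028 ± 0.019 (adjusted p 0.44, limma). Of the 4 genes grouped with eIF2, 0 passed. Over all genes 6.08% passed, so 0 calls among 9 or 4 genes are no result about these complexes. EIF2S1, the alpha subunit whose phosphorylation halts initiation, had a slope of -0.022 ± 0.016 (adjusted p 0.47), and EIF2S2 had 0.028 ± 0.029 (adjusted p 0.65). EIF2AK2 had -0.065 ± 0.036 (adjusted p 0.31). EIF5A, the hypusine-bearing factor that helps ribosomes through stalls, had 0.0041 ± 0.013 (adjusted p 0.90), and EIF6, which keeps the large ribosomal subunit from joining early, had 0.031 ± 0.012 (adjusted p 0.11).

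Among the genes classed as eEF1 by symbol, 4 of 5 slopes were positive and EEF1A1 alone passed, beside 6.08% of all genes. The negative slope was that of EEF1E1, -0.011 ± 0.019 (adjusted p 0.81, limma). Slopes of the eEF1B subunits did not pass: EEF1B2 had 0.0064 ± 0.011 (adjusted p 0.81, limma), EEF1G had 0.0095 ± 0.010 (adjusted p 0.67) and EEF1D had 0.025 ± 0.012 (p 0.047, adjusted p 0.25). All 3 signs turned negative when blocks and low-correlation arrays were handled together.

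With fat area, 0 of 40 members passed, where 0.148% of all genes did (limma, adjusted over all tested probe sets). An unadjusted p under 0.05 was seen for 4 members. EIF3I, a WD-repeat subunit of eIF3, had a slope of -0.045 ± 0.016 (SE, n = 207 less 8, adjusted p 0.41). EIF4E2, a cap-binding relative of eIF4E, had -0.025 ± 0.011 (adjusted p 0.62). EEF1D had 0.032 ± 0.013 (adjusted p 0.53) and EIF4B, a helper of the helicase, had 0.032 ± 0.014 (adjusted p 0.61). Other probe sets of these genes did not share the slopes: that of EIF4B had -0.0014 ± 0.013, and those of EIF4E2 had 0.0066 ± 0.015 and -0.0078 ± 0.012. The 95% intervals of all 40 slopes lay between -0.12 and 0.13 log2 units per SD of fat area. The genes that passed with drip loss had fat area slopes of -0.013 ± 0.012 for EEF1A1, 0.0058 ± 0.012 for EIF2B4, 0.0056 ± 0.026 for EIF4A1 and 0.022 ± 0.028 for EIF4G3, each with an adjusted p of 0.88 or more.

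The difference between both slopes was tested in the animals with both traits. It passed for 1 of 40 members, EEF1A1, at 0.063 ± 0.016 (adjusted p 0.039, limma), beside 0.591% of all genes. For EIF2B4, EIF4A1 and EIF4G3 the difference was 0.038 ± 0.016, -0.092 ± 0.034 and -0.099 ± 0.037, with adjusted p of 0.26, 0.21 and 0.22. A passing slope for drip loss and none for fat area is therefore not a shown difference between the traits for these 3 genes. The EEF1A1 difference had an adjusted p of 0.081 with the title number blocks and 0.057 after quantile normalization.

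**Figure D3:**
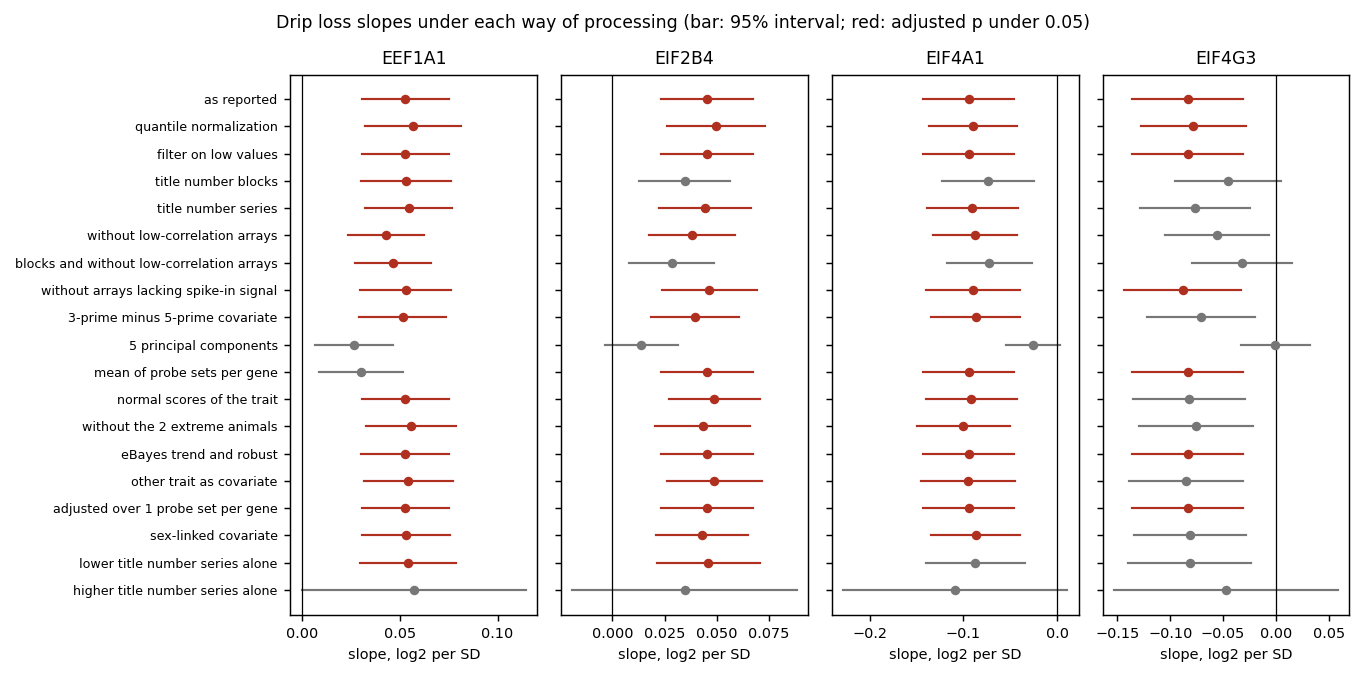
Drip loss slope (log2 units per SD) of the 4 members that passed, under each way of processing the values, with bars for 95% intervals and red for an adjusted p under 0.05. EEF1A1 stays red under all but 3 settings, EIF2B4 and EIF4A1 turn grey with title number blocks, EIF4G3 turns grey under most settings, and all 4 are grey after 5 principal components and in the higher title number series alone (33 animals).

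The neighbouring steps of protein synthesis were read from other lists. Among 6 measured genes of the integrated stress response, which runs through eIF2 phosphorylation, 2 passed with drip loss, where 6.08% of all genes did. Of the 6 slopes 2 were positive, and the median was -0.087. ATF4, the transcription factor translated when eIF2 is phosphorylated, had a slope of 0.041 ± 0.012 (adjusted p 0.030, limma). Its sign was opposite to that of the list's median. PPP1R15A, which directs a phosphatase to eIF2, had a slope of -0.22 ± 0.048 (adjusted p 0.0021), with levels from 6.43 through 8.39 to 9.86. With the blocks, or without the 24 arrays, the list kept 1 call in the lower direction and none in the higher.

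Of 5 mitochondrial translation factors, 5 slopes were positive and 2 passed as higher with drip loss. Over all genes, 4127 of 6765 slopes were positive and 3.96% passed as higher, and a list of 5 genes is too short for a share. TSFM, the mitochondrial exchange factor of EF-Tu, had 0.062 ± 0.018 (adjusted p 0.028, limma) and MRRF, which recycles mitochondrial ribosomes, had 0.059 ± 0.015 (adjusted p 0.013). With the blocks, and without the 24 arrays, 0 of 5 passed. Of 57 cytosolic ribosomal protein genes 0 passed as higher and 1 as lower, beside 3.96% and 2.11% of all genes. They had 50 positive slopes and a median of 0.018 against 0.0080 over all genes. The median was 0.0080 with the blocks and 0.0068 without the 24 arrays, with 45 positive slopes in each. Counts were 0 of 15 for cytosolic tRNA synthetases and 0 of 6 for mTOR signalling, which controls the factors by phosphorylation. For termination, recycling and poly(A) binding the count was 0 of 3. Over all genes 6.08% passed, so 0 calls in lists this short are no result about a pathway. These were the measured genes of lists of 20, 13 and 8, and MTOR itself was not among them. With fat area, 0 genes of any of these lists passed, where 0.148% of all genes did. A 5-prime TOP tract is the sequence through which mTOR controls ribosomal mRNAs. Of the 7 measured members whose mRNAs are known for it, EEF1A1 alone passed with drip loss, beside 6.08% of all genes.

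Many pairs of members were correlated across animals, in both directions. Of the 780 pairs, 301 were positively and 200 negatively correlated (Pearson r, 100000 permutations, adjusted p under 0.05 over the 780 pairs), which is 38.6% and 25.6%. Over all 22879230 pairs of genes, 20.7% had an r as positive and 16.6% an r as negative as the weakest such pair, 0.149 in size. The median r was 0.051 for pairs of members and 0.0059 for all pairs of genes. Without the 24 arrays 33.1% of the pairs of members were positive and 19.9% negative, beside 16.04% and 11.6% of all pairs. These shares are a description, since pairs of members share genes and all 207 arrays. After 5 principal components, 265 pairs were positive and 46 negative, 33.97% and 5.90%, beside 9.79% and 6.62% of all pairs of genes, so the negative share was then close to the background. Members are brighter than most genes on the array, and among genes above the median level the shares were 39.3% and 25.2% of pairs of members, beside 27.9% and 21.2% of all pairs.

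**Figure D4:**
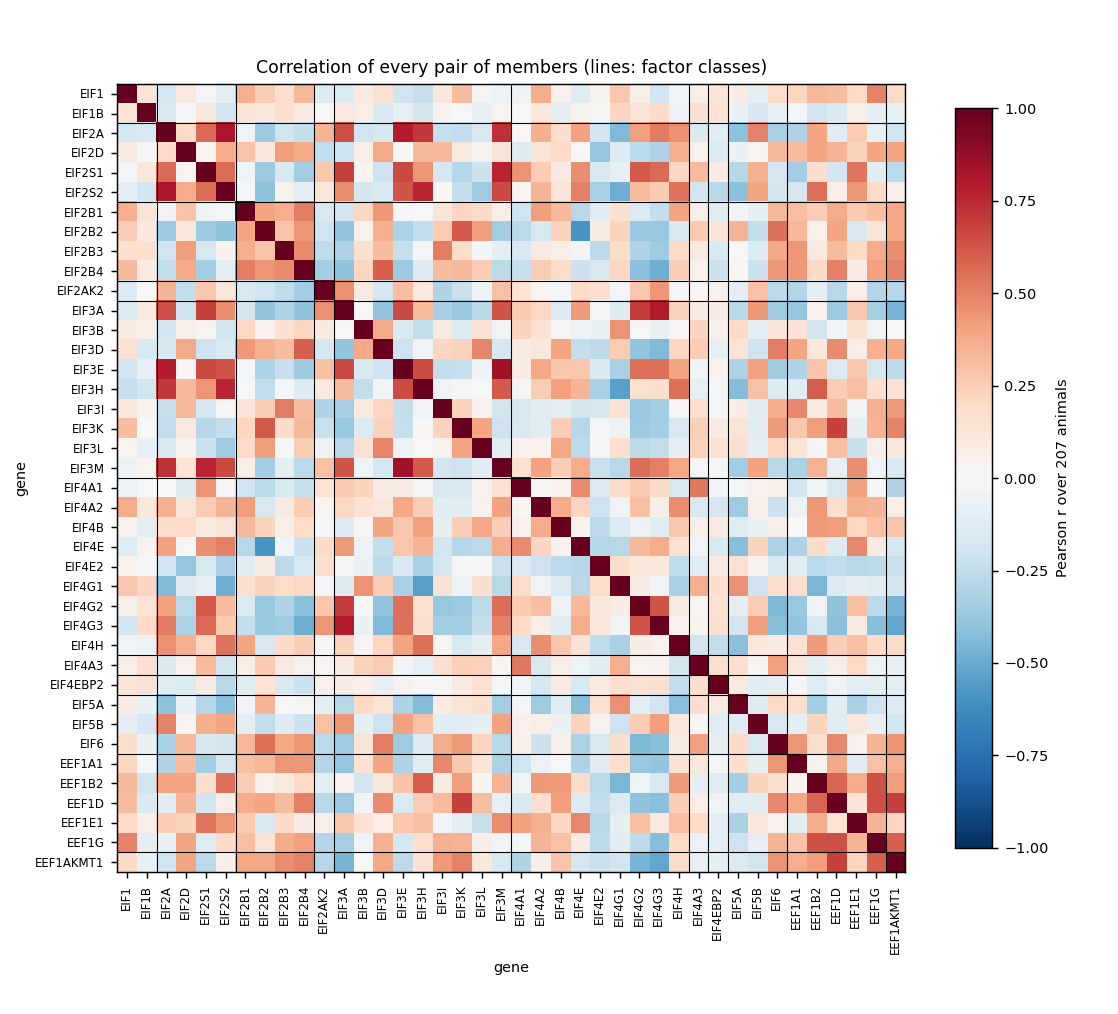
Pearson r over 207 animals for each pair of the 40 members, in red for positive and blue for negative values, with black lines between factor classes. The eIF2B block is red throughout (0.28 to 0.51), EIF2A, EIF2S1, EIF2S2, EIF3A, EIF3E, EIF3H and EIF3M form a red group across eIF2 and eIF3, and EIF4G2 and EIF4G3 are blue against eIF2B and most eEF1 genes.

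All but 1 of the 8 largest correlations were among eIF2 and eIF3 factors. EIF3E and EIF3M, subunits of eIF3, had r = 0.84 (rho = 0.82, r = 0.82 without the 2 animals farthest from the median). EIF2A, a factor that can also bring initiator tRNA, and EIF2S2 had r = 0.81 (rho = 0.76). EIF3A, the largest subunit of eIF3, and EIF4G3 had r = 0.79 (rho = 0.74). EIF2A with EIF3E had r = 0.78 and EIF2S1 with EIF3M and EIF2S2 with EIF3H had r = 0.76. EIF2A with EIF3M and with EIF3H had r = 0.73 and 0.71. Each of the 8 had the smallest p that 100000 permutations give, 1e-05, an adjusted p of 3.29e-05 and a positive r in all 10 blocks of title numbers. The lowest value in any block was 0.43, for EIF2A with EIF3M. After 5 principal components EIF2A with EIF3M was at 0.16 (adjusted permutation p 0.053) and the other 7 pairs lay between 0.33 and 0.56.

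The 5 most negative pairs all included an eIF4F factor. EIF2B2, the beta subunit of eIF2B, with EIF4E had r = -0.59 (rho = -0.55), EIF3H with EIF4G1 had -0.54, EEF1AKMT1, a methyltransferase of eEF1A, with EIF4G3 had -0.52, and EIF2S2 with EIF4G1 and EIF2B4 with EIF4G3 had -0.49. Each had a permutation p of 1e-05 and an adjusted p of 3.29e-05. The first 3 were negative in all 10 blocks, EIF2S2 with EIF4G1 in all but 1 and EIF2B4 with EIF4G3 in all but 2. After 5 principal components EIF2B2 with EIF4E was 0.12 and EIF2B4 with EIF4G3 was 0.15, with turned signs. EEF1AKMT1 with EIF4G3 was then at -0.11 (adjusted permutation p 0.22) and EIF2S2 with EIF4G1 at -0.086 (adjusted permutation p 0.33), and EIF3H with EIF4G1 alone of the 5 kept its call, at -0.33.

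Subunits of 1 complex did not always move together. The 6 pairs of the 4 eIF2B subunits were all positively correlated, with a median r of 0.42 and a range of 0.28 to 0.51. They remained positive, 6 of 6 below an adjusted p of 0.05, with the blocks (median 0.38), without the 24 arrays (0.38) and after 5 principal components (0.28). Over all pairs of genes, 20.7% had an r of 0.149 or more. EIF2B2, EIF2B3 and EIF2B4 had their highest r with any member outside eIF2B, at 0.61, 0.51 and 0.60, and EIF2B1 within it, at 0.51. Such correlations were thus not particular to the complex. The 36 pairs of eIF3 subunits had a median of -0.015, with 13 called positive and 11 negative, and without the 24 arrays a median of 0.062, with 11 positive and 6 negative. EIF3A, EIF3E, EIF3H and EIF3M correlated with each other at 0.32 to 0.84, while EIF3A ran against EIF3D (r = -0.40), EIF3K (-0.38) and EIF3I (-0.34), and EIF3D followed EIF3L (0.49) and EIF3B (0.38). After 5 principal components the pair EIF3A and EIF3D was at 0.13 and EIF3D and EIF3L at 0.39, with 14 pairs of eIF3 subunits called positive and 3 negative.

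Within the class of eIF4F factors and helpers, the helicase paralogs EIF4A1 and EIF4A2 were not correlated (r = 0.011, rho = -0.065, adjusted permutation p 0.90). EIF4G2 and EIF4G3 had r = 0.63, while EIF4G1 and EIF4G3 had r = -0.031 (adjusted permutation p 0.71). EIF4A1 and EIF4E had r = 0.47. For eIF2, EIF2S1 and EIF2S2 had r = 0.56 (rho = 0.49, adjusted permutation p 3.29e-05), and 0.43 without the 24 arrays.

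Of the 10 pairs of genes classed as eEF1 by symbol, EEF1E1 included, 7 were called positive, with a median r of 0.36. Without the 24 arrays 4 were, with a median of 0.12. The eEF1B subunits correlated with each other. EEF1B2 with EEF1G had r = 0.63 (rho = 0.61, positive in all 10 blocks), EEF1D with EEF1G had 0.65 and EEF1B2 with EEF1D had 0.58. These 3 were 0.64, 0.58 and 0.63 without the 24 arrays, but EEF1B2 with EEF1G was 0.15 after quantile normalization (adjusted permutation p 0.054). EEF1A1, which the eEF1B subunits recharge, had r = 0.036 with EEF1B2 (adjusted permutation p 0.66). That value is of the member's probe set, which correlated with the EF1A control probe sets at only 0.029 to 0.094. No EF1A control was set against EEF1B2, so the value need not hold for the EEF1A1 mRNA.

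The mRNAs of elongation factors are known to be controlled together with those of ribosomal proteins, so each member was also set against the mean of 57 ribosomal protein genes. Of 40 members, 26 were positively and 7 negatively correlated with it (100000 permutations, adjusted over the 40), which is 65% and 17.5%. Of the other 6668 genes, 34.2% had an r as positive and 20.6% as negative as the weakest of these, 0.143. The negative share of the members was thus no larger than that of the other genes. The median r was 0.21 for members and 0.042 for the other genes.

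EEF1B2 stood highest at r = 0.93 (rho = 0.91, 0.83 to 0.97 within blocks, 0.88 after 5 principal components). EEF1D followed at 0.68 (0.30 to 0.89 within blocks), EEF1G at 0.67 (0.37 to 0.90) and EIF3H at 0.59 (0.41 to 0.79). The relation to the ribosomal protein mean was not run after quantile normalization, which took EEF1B2 with EEF1G from r = 0.63 to 0.15. EIF3K, a small eIF3 subunit, was at 0.46 over all animals and at 0.80 after 5 principal components. EEF1A1 was at 0.14 (adjusted permutation p 0.047, rho = 0.092 with adjusted p 0.22), between -0.47 and 0.58 within blocks and at -0.020 after 5 principal components. These EEF1A1 values are of the member's probe set, and no EF1A control was set against the ribosomal protein mean. The most negative were EIF4G1 at -0.47, EIF5A at -0.37 and EIF4E2 at -0.31, each negative in all 10 blocks, and EIF4G1 was at -0.44 without the 24 arrays.

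**Figure D5:**
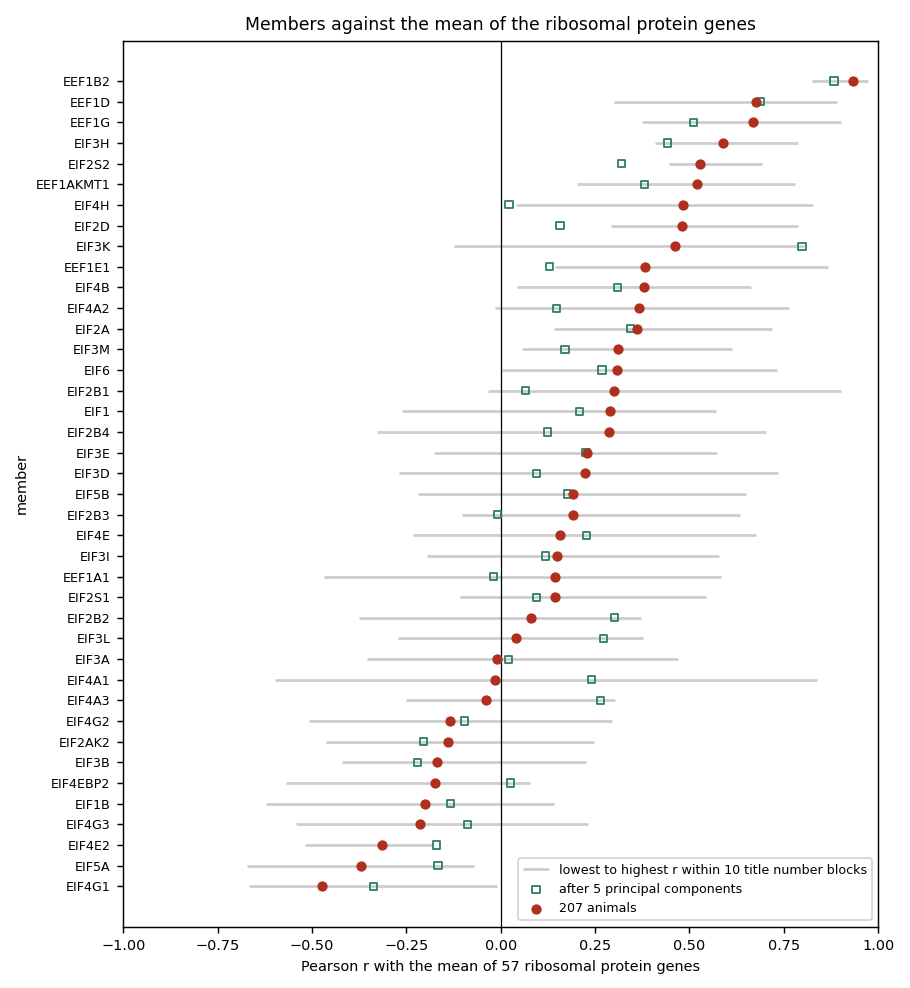
Pearson r of each member with the mean of 57 ribosomal protein genes: red points over 207 animals, green squares after 5 principal components, grey lines from the lowest to the highest r within the 10 title number blocks. EEF1B2 lies at the top at 0.93 with a short grey line, EEF1A1 near the middle at 0.14 with a line across 0, and EIF4G1 at the bottom at -0.47.

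Probe sets of the same gene were a further check on the level of a member. Of 15 genes with several probe sets, the 21 other probe sets had the same sign of drip loss slope as the member in 15 cases, and 0 of 21 passed where 4.61% of all tested probe sets did. The member and the other probe set correlated closely for EIF2A (r = 0.84), EEF1AKMT1 (0.84), EIF1 (0.76) and EEF1E1 (0.75). They were negatively correlated for EIF4H, a helper of the helicase (r = -0.29, adjusted permutation p 6.86e-05), and for both other probe sets of EIF4E2 (-0.22 and -0.15), and not correlated for EIF3D (-0.060, adjusted permutation p 0.40). The values given for EIF4H, EIF4E2 and EIF3D therefore hold for 1 probe set each. For EIF5B, EIF4EBP2 and EEF1A1, 1 other non-control probe set each was not correlated with the member (r = 0.13, 0.079 and -0.069). The adjusted permutation p were 0.092, 0.31 and 0.36, and the rest of their non-control probe sets were positively correlated with it. Values of these genes were thus not shared by every probe set. EIF2B4, EIF4A1 and EIF4G3 had a single probe set and no such check.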

How the data were processed

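Muscle RNA of 207 pigs was measured on 1 array each. The authors deposited log2 expression values per probe set, made with GCOS 1.1.1 and PLIER per the submitters' processing notes. Scaling between arrays and other steps are not given in the sources used here. The deposited values, 4 to 15.32 with a floor at 4 (1.43% of values), were used as they stand. Control probe sets were left out, and 23935 were tested.

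A linear model of each on the standardized trait was fitted (lmFit and eBayes, limma 3.58.1, R 4.3.3), two-sided, with Benjamini-Hochberg adjustment over all tested probe sets and a threshold of 0.05. The number of arrays limits the precision. Correlations used 100000 two-sided permutations with numpy and scipy. The code was tested on simulated data. Members named with full values are those that passed, up to 15 per direction and trait, EEF1A1, EEF1B2, EEF1D, EEF1G, EIF4E, EIF4G1, EIF2S1, EIF5A, EIF3E and EIF6, the 5 with the largest SD, the 8 largest and 5 smallest correlations and 3 chosen pairs. All other members and pairs given by name were chosen after their values were seen. The members, lists and tests were chosen with earlier results of these data known. Probe set names came from the array annotation, and sequences are not used here. Alternatives, each a single change except for blocks with low-correlation arrays left out together, were quantile normalization, low values, title number blocks and series, sets of arrays, control signals, principal components, probe set means, trait scale, extreme animals, variance model, the other trait, the adjustment and sex-linked transcripts (a component of EIF1AY and SRY).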

Additional observations from a re-analysis of the deposited data

How the results depend on the processing

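No paired analysis was possible because the labels put all animals in 1 group. Of the members with higher levels at more drip loss, 2 as reported, 1 passed with title number blocks, with blocks and low-correlation arrays handled together, with probe set means or with the EF1A control as EEF1A1, and 0 after 5 principal components or in the higher title number series alone. Of the 2 with lower levels, 1 passed with the series as a covariate, without low-correlation arrays, with the 3-prime minus 5-prime covariate, normal scores, without the 2 extreme animals, with the other trait or the sex-linked covariate, and 0 with blocks, blocks and low-correlation arrays together, 5 principal components or either series alone. The member whose slopes differed between the traits was lost (0) under quantile normalization, blocks, probe set means, 5 principal components, without arrays lacking spike-in signal and in either series alone, and 5 principal components gave 1 in the other direction. Negative pairs numbered 46 after 5 principal components. Both the control probe set and the single series were added after seeing the data. Fat area gave 0 under every alternative run.

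Among the members and pairs named by the stated rule and the fat area slopes given, signs turned as follows, with no turned value past the threshold. Drip loss slopes: EEF1B2 -0.0019 with blocks, -0.0022 without low-correlation arrays, -0.011 with both, -0.017 after 5 components and -0.0029 in the lower series; EEF1D -0.00018 with both and -0.011 after components; EEF1G -0.012 without low-correlation arrays, -0.018 with both and -0.018 after components; EIF2S1 0.0089 after components and 0.037 in the higher series; EIF3E 0.033 in the higher series; EIF4E 0.0099 after components; EIF5A -5.78e-05 after quantile normalization and -0.013 in the higher series. Fat area slopes: EEF1A1 0.0028, EIF4G3 -0.061 and EIF3I 0.022 in the higher series; EIF2B4 -0.0029 with the sex-linked covariate; EIF4A1 -0.019 with blocks, -0.00072 with both, -0.0034 with the other trait and -0.00025 in the lower series. Correlations: EIF2B2 with EIF4E 0.12 and EIF2B4 with EIF4G3 0.15 after components; EIF4A1 with EIF4A2 -0.010 after quantile normalization, -0.053 without low-correlation arrays, -0.039 with both, -0.011 after components and -0.065 as Spearman rho. The cause of these changes was not tested.

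Of 120 counts under alternatives 93 stayed within 1.5 times the reported count, 26 fell below this and 1 rose above it. The 93 include counts of 0 that stayed at 0, among them every fat area count. They therefore do not measure how stable the drip loss calls were. Leaving out low-correlation arrays or fitting 1 series also leaves fewer animals. No member had a value at the scale's floor.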

Other observations

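The genes whose levels followed a member most closely were looked up for 8 members chosen after their values were seen, over all other genes (53800 relations, adjusted over them). For EIF2AK2 the named genes among the 6 closest were all known as interferon-induced: IFI44L at r = 0.74 (rho = 0.59), IFIT3 at 0.71 (rho = 0.54) and RSAD2 at 0.70 (rho = 0.49), and PARP12 at 0.68. Each had a permutation p of 1e-05, the smallest possible, and an adjusted p of 5.3e-05. IFI44L was at 0.70 without the 2 farthest animals and at 0.24 to 0.91 within the blocks of title numbers, and RSAD2 at -0.18 to 0.90, so in some blocks the relation was weak or missing. EIF2AK2 was also the only member whose mean lay below the level of the typical probe set.

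For EIF4A1, which was lower with more drip loss, the closest genes were TNFRSF1A, a receptor of tumour necrosis factor, at r = 0.79, LITAF at 0.78, PTPN1 and TGIF1 at 0.76 and the adhesion molecule ICAM1 at 0.75, with TNFRSF1A at 0.54 to 0.92 within blocks. For EIF4E they were CLDND1 at 0.88, the chaperone cofactor DNAJB4 at 0.85, the chromatin protein KMT2E at 0.84 and the heat shock transcription factor HSF2 at 0.82, with KMT2E between 0.79 and 0.91 in all 10 blocks. For EIF4G3 they were DEK at 0.84 and SENP6 at 0.83, and for EIF2S2 RWDD1 at 0.90 and COPS5 at 0.89. EEF1B2 followed ribosomal protein genes, RPL6 at 0.89 and RPS23 at 0.88. EIF2B4 followed CDC37, a cochaperone of kinases, at 0.69, and EEF1A1 followed GSTZ1 at 0.63. Each p was 1e-05. These pairs were picked as the largest of many, so their sizes are a description. They were not run after quantile normalization.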
